A study of Rattus norvegicus with 13 samples.

Results

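A set of 9 genes that the study listed as different in the thyroid of rats whose mothers had received potassium iodide (KI) falls, by how their signals varied from animal to animal, into a pair of blocks. Block A has 5 genes (Cym, Glra2, Rassf2, LOC102549817 and LOC102552016) and block B has 4 (Asf1a, Lcn10, Stambp and Trpt1), out of 36174 gene symbols on the array. All probes that the array names for these 9 genes were kept, which gave 19 of its 45598 gene probes. The genes were picked from the study's list, which was made on the contrast of KI-treated against control in these animals, and were then grouped by their correlations in the same animals, so both the differences and the correlations of the members are given below as descriptions without a test.

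The thyroids of 13 male Wistar rats, 6 of them KI-treated and 7 controls, were each hybridised to a single-colour Agilent array. Their mothers had been given 1 mg/kg of KI or, for the controls, 0.9% NaCl by gavage for 8 days from gestational day 9, and the offspring were sampled 30 days after weaning, 51 days after birth. The sources do not name the litters, so pups that share a mother could not be told apart and every spread below is between arrays. Each value is a log2 signal from which the 75th percentile of the array was subtracted, called the level, and it compares animals for a probe but not probes with each other.

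The genes have little in common in what they are known to do. Cym encodes chymosin, the aspartic protease that clots milk in the stomach of the newborn. Glra2 encodes an alpha subunit of the glycine receptor, a chloride channel of inhibitory synapses, and Rassf2 encodes a Ras association domain protein that binds the MST kinases of the Hippo pathway. Asf1a encodes a chaperone of core histones, Lcn10 a lipocalin known from the epididymis, Stambp a deubiquitinase of endosomes and Trpt1 an enzyme of the last step of tRNA splicing. LOC102549817 and LOC102552016 are named only as loci. In the thyroid, follicular cells make thyroid hormone from iodide on thyroglobulin. An array probe is a synthetic strand of 60 bases whose signal is that of all labelled RNA that pairs with it, and dinucleotide repeats such as CA are common in mammalian genomes.

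The scanner files give the sequence of each probe, which the choice of the members did not use. All 9 brightest probes, 1 per gene, held an uninterrupted tract of alternating C and A of 8 or more bases, and this tract was longer in every brightest probe of block A (17 to 32 bases) than in any brightest probe of block B (8 to 14 bases). To show this, 30 of the 60 bases of 12 probes follow, 5′ to 3′, with every alternating C/A run of at least 5 bases in capitals. The first 6 lines are block A, the next 3 are genes of block B, and the last 3 are further probes of member genes without such a run, shown for contrast.
Cym: caacCACACACACACACACACACACACACA
Glra2, brightest probe: ACACACACACACACACACACACACACACAC
Glra2, other probe: ttagtttaatgCACACACACACACACACAC
Rassf2, brightest probe: ctaACACACACACACACACACACACACACA
LOC102549817, brightest probe: taggtcttCACACACACACACACACACACA
LOC102552016: gagacatACACACACACACACACAatcact
Asf1a: CACACACAtatgCACACACACAgtcCACAC
Lcn10: gggcactgCACACACAtgtacaacctgcca
Trpt1, brightest probe: CACACAaggtgcacagACACACACACACAC
Rassf2, other probe: aacttgcgtattaggaatggtacatgactt
Trpt1, other probe: caaattgtgaagtggcagtgttcatcaatg
LOC102549817, other probe A_44_P1107143: ctgtttgacggctgaaaacctagcaccacc

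The longest tract measured 32 bases in Glra2 (of which 30 are shown), 27 in Rassf2, 26 in Cym, 22 in LOC102549817 and 17 in LOC102552016. In block B it measured 14 bases in Trpt1, 11 in Stambp, 10 in Asf1a and 8 in Lcn10, and in Asf1a and Trpt1 further short runs stood beside it. The array annotation in the files places the brightest probes of 8 of the genes at chr2:202681433-202681492 (Cym, minus strand), chrX:49977287-49977346 (Glra2, plus), chr3:119735774-119735833 (Rassf2, minus), chr7:8643567-8643626 (LOC102549817, minus), chr10:92637737-92637796 (LOC102552016, minus), chr20:32276385-32276444 (Asf1a, plus), chr3:3846607-3846666 (Lcn10, plus) and chr1:209674562-209674621 (Trpt1, plus). The genome build of these coordinates could not be checked here, and whether a probe lies in a coding exon or an untranslated region was not assigned. Both Glra2 probes overlap on the genome and share a part of 1 tract. Of the 45598 gene probes, 81 had a tract of 10 or more bases and 20 had 1 of 20 or more.

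In block A the KI-treated animals had lower levels than most controls. Cym had levels of 2.85, 3.06 and 3.38 in the KI-treated animals (lowest, median and highest of 6) and 3.13, 3.71 and 4.16 in the controls (of 7). Glra2 ranged from 4.03 to 4.72 (median 4.35) in the KI-treated animals and from 4.36 to 5.29 (median 4.92) in the controls. Rassf2 ranged from 2.49 to 2.95 (median 2.61) in the KI-treated animals and from 2.68 to 3.71 (median 3.26) in the controls. In all 3 genes the KI-treated animals lay below the control median, and the groups overlapped, with KI 6 the highest KI-treated animal and control 6 the lowest control. LOC102549817 ranged from 0.74 to 1.26 (median 0.997) in the KI-treated animals and from 1.13 to 2.21 (median 1.71) in the controls. LOC102552016 ranged from 1.98 to 2.30 (median 2.02) in the KI-treated animals and from 1.88 to 3.24 (median 2.84) in the controls, where control 6 lay below every KI-treated animal. The difference KI-treated minus control was -0.67 ± 0.15 (SE) for Cym, -0.57 ± 0.16 (SE) for Glra2, -0.65 ± 0.15 (SE) for Rassf2, -0.77 ± 0.16 (SE) for LOC102549817 and -0.71 ± 0.18 (SE) for LOC102552016, with n = 6 and 7. These sizes lie close together, and KI 6 and control 3 were the highest of their groups in all 5 genes.

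In block B the difference pointed the same way with a wider spread between animals. Asf1a had levels of -0.98, -0.19 and 0.76 in the KI-treated animals (lowest, median and highest of 6) and 0.097, 0.92 and 1.40 in the controls (of 7). Lcn10 ranged from -3.66 to -2.24 (median -2.87) in the KI-treated animals and from -3.01 to -1.64 (median -1.996) in the controls. Stambp ranged from 0.76 to 1.48 (median 1.22) in the KI-treated animals and from 1.30 to 2.29 (median 1.998) in the controls. Here KI 1 was the lowest and KI 3 the highest of the KI-treated animals in all 4 genes, another order than in block A. Trpt1 ranged from 0.82 to 1.39 (median 1.09) in the KI-treated animals and from 0.98 to 2.40 (median 2.04) in the controls. The difference was -0.89 ± 0.32 (SE) for Asf1a, -0.73 ± 0.26 (SE) for Lcn10, -0.62 ± 0.19 (SE) for Stambp and -0.69 ± 0.21 (SE) for Trpt1. The groups overlapped in all 9 brightest probes, so 0 of 9 separated fully, against 0.581% of all probes with complete values. The study chose the genes on this contrast, so nothing is read from these differences about the members as a set. Over the 25717 probes tested with limma, 60.7% had a lower mean in the KI-treated group, 12.7% had an unadjusted p under 0.05 (3271 probes), and 0 (0%) passed after Benjamini-Hochberg adjustment. Other scalings moved the median difference of all probes by up to 0.079. The members' differences stayed below 0 in each, though their sizes changed. How much of a probe's signal comes from the RNA of the gene it is named for was not tested, so these levels are those of the probes. In bulk tissue, moreover, a lower level of RNA per cell cannot be told apart from fewer cells that hold it.

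**Figure D1:**
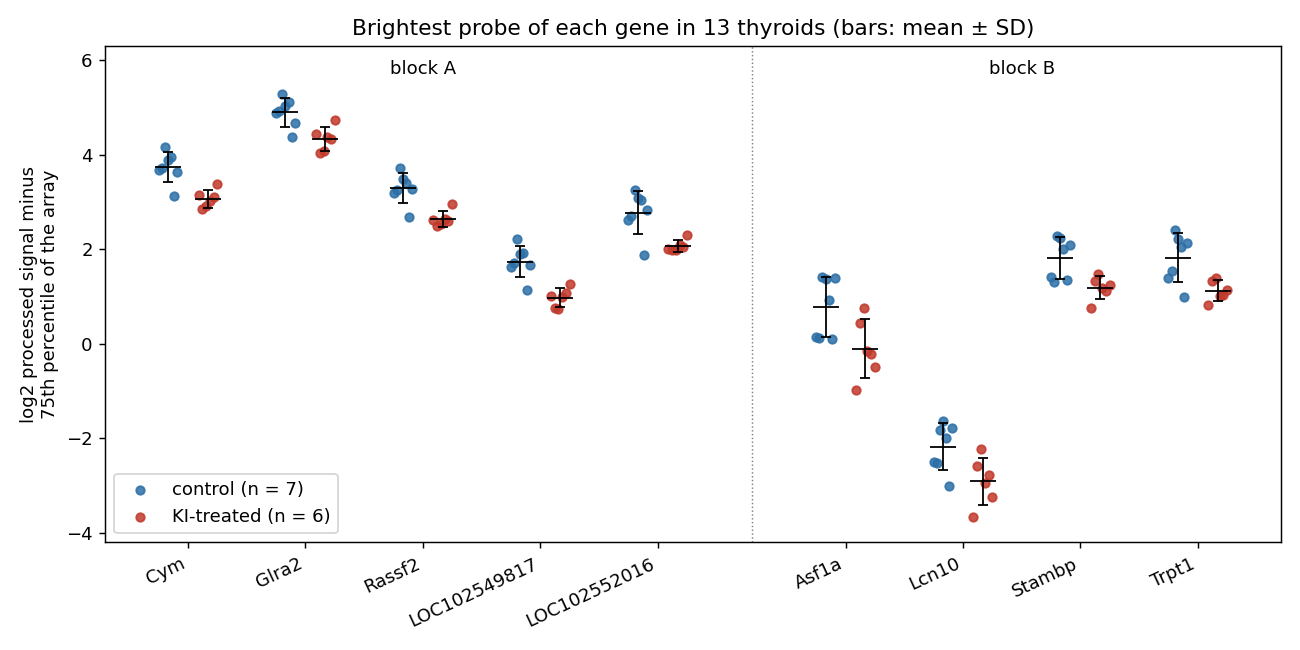
The level (log2 signal relative to the array's 75th percentile) of the brightest probe of each of the 9 genes, with a point per animal (7 controls in blue, 6 KI-treated in red) and the mean ± SD in black. The KI-treated means lie below the control means in all 9 genes and the groups overlap in each.

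After the group means were subtracted, the 5 genes of block A varied together from animal to animal. Pearson's r was between 0.82 (Glra2 with LOC102552016) and 0.99 (Cym with LOC102549817) over the pairs, with a mean of 0.94 (n = 13 animals). In block B it was between 0.87 (Asf1a with Trpt1) and 0.95 (Asf1a with Lcn10), with a mean of 0.91. By rank (Spearman's rho) the means were 0.91 and 0.92. Both held within each group of animals, with a mean r inside block A of 0.91 in the 6 KI-treated and 0.97 in the 7 controls, and inside block B of 0.91 and 0.95. All arrays share their scaling, and these values are no evidence beyond the choice of the genes.

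Across the blocks the pairs ran from r = -0.031 (Glra2 with Asf1a) to 0.84 (LOC102552016 with Trpt1). The order followed the length of the tracts in part. Glra2, with the longest, had the lowest r with each gene of block B, and LOC102552016, the shortest of block A, had the highest with each. Trpt1, the longest of block B, had the highest r with each gene of block A. Other neighbours broke the order, since Rassf2 (27 bases) had a higher r with each gene of block B than Cym (26 bases), and Lcn10 (8 bases) a higher r with each gene of block A than Asf1a (10 bases). With Cym, r was 0.19 for Asf1a, 0.29 for Lcn10, 0.47 for Stambp and 0.63 for Trpt1. The second Glra2 probe, with a tract of 19 bases, stood between the blocks, with r = 0.64 with the brightest Glra2 probe, 0.87 with Rassf2 and 0.92 with Trpt1. It differed by -0.85 ± 0.18 (SE) between the groups.

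**Figure D2:**
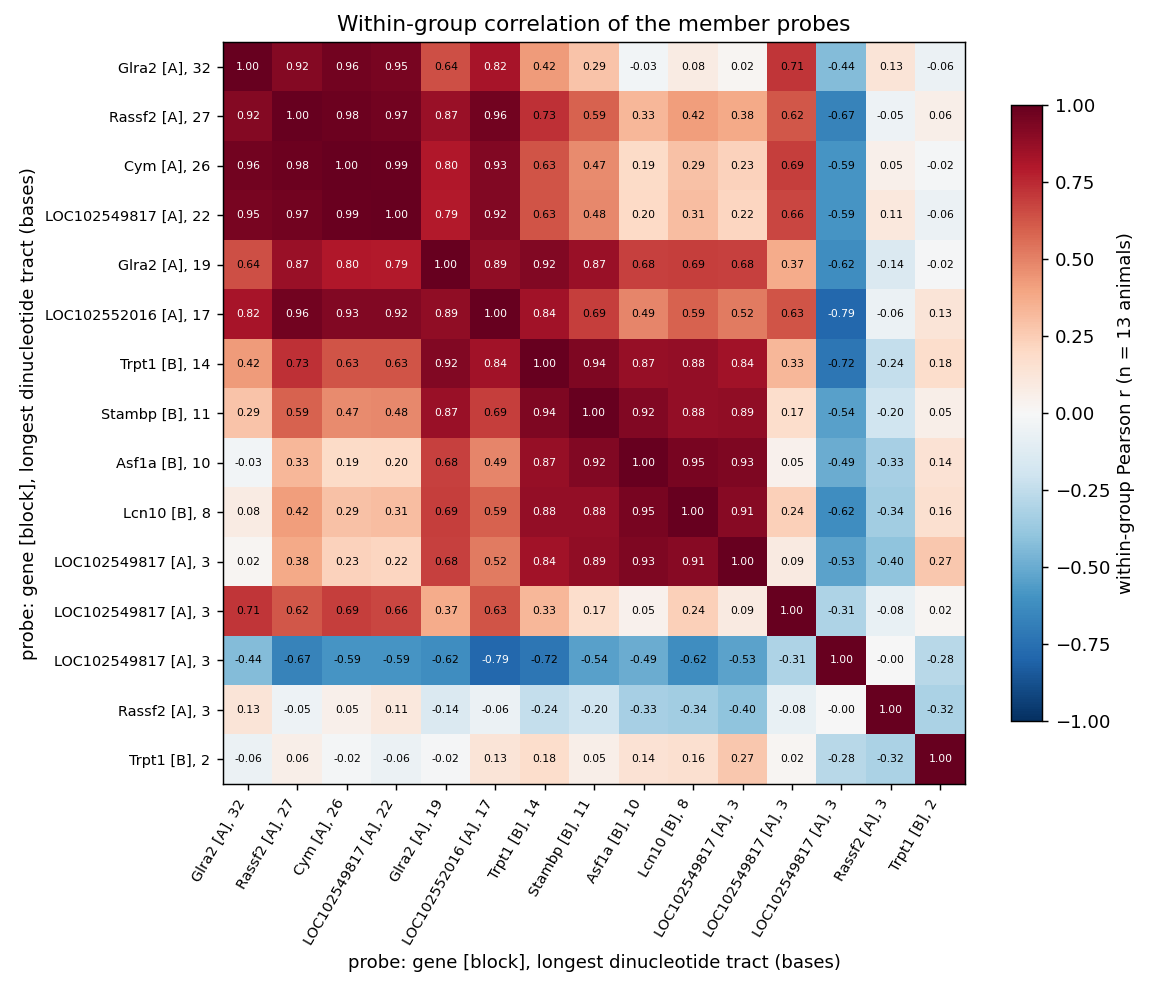
Within-group Pearson r between the 15 member probes that were tested, ordered by the longest alternating C/A tract in the probe (bases, after the gene and its block). The red square at the upper left is block A, the next is block B, and the LOC102549817, Rassf2 and Trpt1 probes with tracts of 2 or 3 bases lie at the lower right, among them 1 LOC102549817 probe that correlates with block B.

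The means of both blocks correlated with r = 0.44 over the 13 animals (rho = 0.19), and this link rested on few animals. Control 6 was the lowest in both, at -0.65 from its group mean in block A and -0.70 in block B, and control 3 the highest control in both (0.44 and 0.51). KI 1 was near its group mean in block A (0.025) and low in block B (-0.59), while KI 2 and KI 3 were low in block A (-0.19 and -0.17) and high in block B (0.30 and 0.53). Without control 6 the link was r = 0.11, and without controls 3 and 6, the animals farthest from the median of block A, it was -0.11. It was 0.79 within the controls (n = 7) and -0.61 within the KI-treated animals (n = 6), and the difference between these was not tested. The arrays came from 6 slides scanned in 3 sessions. KI 2 and KI 3 were the KI-treated animals of session 1, KI 1, KI 5 and KI 6 those of session 2, and KI 4 that of session 3. The mean deviations of blocks A and B were -0.20 and 0.15 in session 1, 0.048 and -0.33 in session 2, and 0.14 and 0.26 in session 3. The negative link within the KI-treated animals thus cannot be told apart from a difference between sessions. With session means subtracted the link was 0.73 and with slide means subtracted, which drops control 7 as the single array of its slide, 0.90, whereas the mean r inside the blocks was 0.94 and 0.90 with session means subtracted.

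Within the sessions the KI-treated minus control difference of the block A mean was -0.62 (2 and 2 animals), -0.50 (3 and 2) and -0.85 (1 and 3). For block B it was -0.21, -0.55 and -1.15 in the same sessions, so the direction held in each with few animals behind it. Control 6 also had the smallest share of gene spots well above background (59.3%, against up to 69.9% on the other arrays) and the lowest 75th percentile of signal. Its part in the link was not tested beyond leaving it out. Over the 13 arrays, block A had r = 0.34 with the share of spots well above background, 0.46 with the 75th percentile and 0.14 with the median local background. For block B these were 0.45, 0.30 and -0.55. By rank the order differed for block A, with rho of 0.082, 0.22 and 0.43, and for block B rho was 0.49, 0.16 and -0.45. What these array measures contribute to the variation between animals was not tested.

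**Figure D3:**
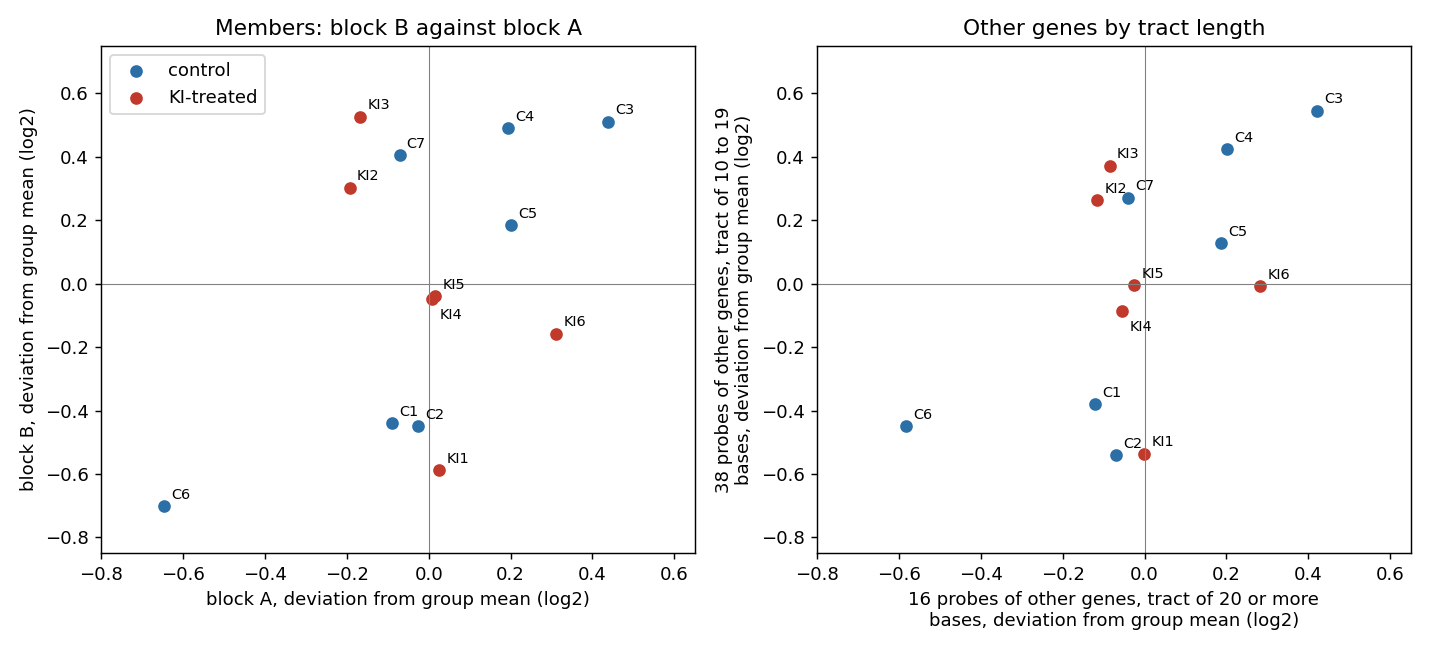
Left, the mean deviation of block B against that of block A from the group mean (log2) in each animal. Right, the same for other genes, with the mean of 38 probes with tracts of 10 to 19 bases against the mean of 16 probes with tracts of 20 or more bases. The 13 animals take nearly the same places in both panels, with control 6 at the lower left and control 3 at the upper right.

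None of the 5 tested probes of member genes without a tract followed its own block as closely as the brightest probe of the gene, though 1 followed the other block. The other Rassf2 probe, with levels of -1.71, -1.31 and -0.68 in the KI-treated animals (lowest, median and highest of 6) and -1.50, -1.31 and -0.84 in the controls (of 7), had r = 0.051 with the mean of the other block A genes and a group difference of -0.0056 ± 0.17 (SE). The other Trpt1 probe, with levels of -1.19, -1.04 and -0.48 in the KI-treated animals (lowest, median and highest of 6) and -1.26, -1.13 and -0.92 in the controls (of 7), had r = 0.13 with the other block B genes and a difference of 0.11 ± 0.12 (SE). In both probes the median of each group lay within the range of the other. LOC102549817 had 7 further probes, none with a tract over 4 bases, and 4 of them were well above background on 5 or fewer arrays and were not tested. Of the other 3, the probe A_44_P1094314 had r = 0.68 and the probe A_44_P1127571 had r = -0.65 with the remaining block A genes. Control 6 was the lowest control in A_44_P1094314 (-4.55, control median -3.03) and the highest in A_44_P1127571 (-0.77, control median -3.32). By rank, rho with the brightest probes of the other block A genes ran from 0.28 to 0.53 and from -0.56 to -0.22. The probe that followed the other block was A_44_P1107143, with r = 0.31 with block A but 0.93 with block B, although its longest tract was 3 bases. Their differences were -0.098 ± 0.34 (SE), -0.32 ± 0.43 (SE) and -0.40 ± 0.29 (SE), and each of the first pair was above background on 11 arrays. For Rassf2 and LOC102549817 the array names other transcripts for these probes than for the brightest probe, whereas both Trpt1 probes carry the same transcript name. What the transcripts contribute was not tested.

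Probes of genes outside the members followed the same order by tract length. Of the 25635 such probes with complete values, 16 had a tract of 20 or more bases, and their r with the block A mean was between 0.81 and 0.99 (median 0.93), whereas their median r with block B was 0.48. The 38 probes with tracts of 10 to 19 bases had a median r of 0.35 with block A and 0.88 with block B. For the 719 probes with tracts of 6 to 9 bases the medians were 0.015 and 0.13, and for the 24862 with less they were -0.051 and 0.020. The class of 16 is small. An r over 0.8 with block A was found for 16 of 16 probes with long tracts and 0.382% of those with tracts under 6 bases (95 probes), and with block B for 26 of 38 with tracts of 10 to 19 bases and 1.07% (267 probes), so tracts did not mark every probe that varied with a block. The points share their arrays and scaling, and no test was made.

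No class of the other alternating tracts had a median r over 0.54 with either block, and several of their classes were lower in KI-treated animals by a smaller amount. The 33 probes with alternating G/T tracts of 20 or more bases, the complement of the C/A tract, had a median r of -0.16 with block A and 0.54 with block B. Their KI-treated minus control differences had a median of 0.12, with 0 of 33 lower. For the 8 probes with alternating G/A tracts of that length the median r was 0.44 with block A and 0.18 with block B, and 8 of 8 were lower (median difference -0.29). For alternating T/C tracts 5 of 5 probes with 20 or more bases and 16 of 16 with 10 to 19 were lower (median differences -0.31 and -0.25), with median r between 0.053 and 0.24 with the blocks. For alternating T/A tracts of 10 to 19 bases 15 of 16 were lower (median -0.23), beside a median of -0.078 over all probes.

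**Figure D4:**
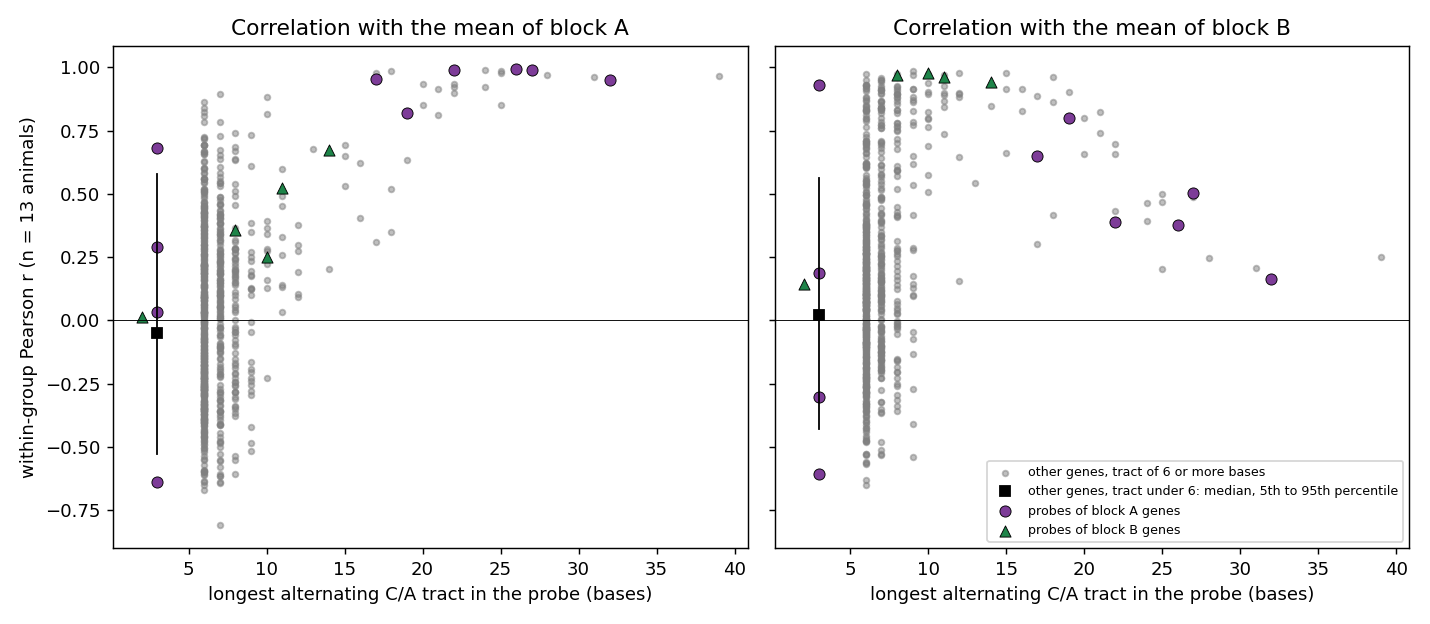
Within-group Pearson r with the mean of block A (left) and of block B (right) against the longest alternating C/A tract in the probe, in bases. Grey points are probes of other genes with tracts of 6 or more bases, the black square and line give the median and the 5th to 95th percentile of the other probes, and coloured points are member probes. Correlation with block A climbs up to tracts of about 20 bases, and correlation with block B is high from about 10 to 19 bases and lower beyond.

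Each member can be set against these outside probes. Of their genes 5 are on the study's list, so they are not wholly apart from the members' choice. With the mean of the 16 long-tract probes, r was 0.98 for Cym, 0.90 for Glra2, 0.99 for Rassf2, 0.96 for LOC102549817 and 0.97 for LOC102552016. With the mean of the 38 probes with tracts of 10 to 19 bases it was 0.95 for Asf1a, 0.91 for Lcn10, 0.98 for Stambp and 0.92 for Trpt1. A pair of members has a tract outside the length class it was set against here. LOC102552016 (17 bases) had r = 0.62 with the mean of the probes with 10 to 19 bases, its own class, and Lcn10 (8 bases) had 0.90 with the mean of the 719 probes with 6 to 9. The members were also regressed on the mean of the 16 long-tract probes and that of the 38 probes with tracts of 10 to 19 bases. After this the mean r inside block A was 0.18 in place of 0.94, inside block B 0.40 in place of 0.91, and the link between the blocks 0.093.

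The group difference followed the same classes. It was below 0 in 16 of 16 outside probes with tracts of 20 or more bases (median -0.65, from -0.79 to -0.45) and in 38 of 38 with tracts of 10 to 19 bases (median -0.81, from -1.23 to -0.33). The median was -0.15 with tracts of 6 to 9 bases and -0.075 with less. In limma, 16 of 16 and 34 of 38 had an unadjusted p under 0.05, all lower, against 7.01% of all probes called lower, and none passed the adjustment. Among these probes 5 were of genes on the study's list, and without them 14 of 14 and 35 of 35 were lower. The tract classes were drawn after the correlations had been seen. The study's thyroid list had 58 symbols on the array, and 13 of them (22.4%) had a probe with a tract of 10 or more bases. Of all 36174 symbols on the array, 80 (0.221%) had such a probe, and the 13 are 16.2% of these 80. The 13 were 8 of the members and Cdkl3, Ets1, Extl3, Slc24a2 and C17H10orf113, which are 5 of the 49 other listed genes (10.2%). The list was made on these animals, so this is a count and no independent evidence.

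With the mean of the outside probes with tracts of 20 or more bases subtracted in each animal for block A, and of those with 10 to 19 bases for block B, little of the members' difference was left. It was -0.028 ± 0.032 (SE) for Cym, 0.070 ± 0.068 for Glra2, -0.0056 ± 0.019 for Rassf2, -0.12 ± 0.043 for LOC102549817 and -0.066 ± 0.064 for LOC102552016. In block B it was -0.088 ± 0.16 for Asf1a, 0.066 ± 0.12 for Lcn10, 0.17 ± 0.041 for Stambp and 0.11 ± 0.093 for Trpt1. LOC102549817 lay farthest below 0 and Stambp farthest above. The members were chosen on this contrast, so no test was made of what was left. The within-group variance that was left was between 1.83% (Rassf2) and 19.9% (Asf1a). With the class of its own tract length in place of that of its block, LOC102552016 came to 0.090 ± 0.18, while Lcn10 kept most of its difference, at -0.59 ± 0.22.

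**Figure D5:**
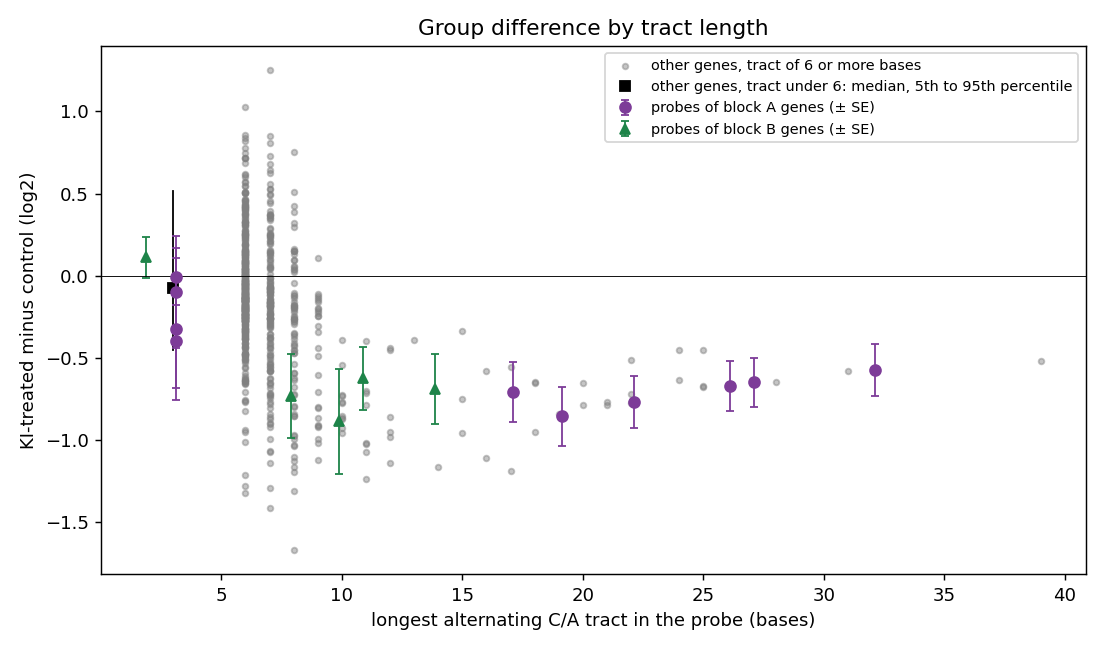
The KI-treated minus control difference (log2) against the longest alternating C/A tract in the probe, in bases. Member probes carry their SE, grey points are probes of other genes with tracts of 6 or more bases, and the black square and line give the median and the 5th to 95th percentile of the remaining probes. All plotted probes with tracts of 10 or more bases lie below 0.

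Outside genes that have probes of both kinds mostly showed the same contrast. For 10 genes the array had a tested probe with a tract of 10 or more bases beside 13 probes with tracts under 6. The 10 probes with a tract were without exception lower in KI-treated animals (median -0.61, from -0.87 to -0.40), and of the 13 without, 8 were (median -0.081, from -0.37 to 0.61). Since all outside probes with such tracts were lower, the direction in these 10 was given beforehand and is no further evidence. Cdkl3, Ets1 and Extl3 among the 10 genes are also on the study's list, which was made on this contrast. The within-group r between a gene's probes of both kinds had a median of 0.0062 and ran from -0.34 (Extl3) to 0.66 (Col5a2). In Extl3, a glycosyltransferase of heparan sulfate synthesis on the study's list, the difference was -0.63 with the tract of 24 bases and -0.19 without, and in Cx3cr1, the fractalkine receptor, -0.72 with 22 bases and 0.065 without. LOC102557195 hardly showed the contrast, with -0.40 with a tract of 11 bases and -0.29 without.

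The genes most like block A, among 20701 outside probes well above background on all arrays, were Extl3, LOC102552929, LOC102549602, ENSRNOT00000025343 and Tspan18, with r from 0.98 to 0.99 over 13 animals and tracts of 17 to 27 bases. Those most like block B were LOC102555685, LOC102546809, LOC102556325, Phtf1 and Erc2, with r from 0.97 to 0.98. Of these, Erc2 had a longest tract of 3 bases and the others had 9 to 15. Of the 20 most like block A among all 25635 outside probes, 15 had a tract of 10 or more bases, but of the 20 most like block B only 5 had, and 11 had 1 of 6 or more. The most opposite were Ctbp1, Ece1, LOC102553828, Dync1i2 and Hspb2 for block A (r from -0.88 to -0.84) and ENSRNOT00000048767, ENSRNOT00000074069, Trim11, Pde4d and ENSRNOT00000075538 for block B (-0.87 to -0.81), and none of these had a tract over 4 bases.

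Relatives and partners of the members, taken from 7 lists of textbook families, passed no test. Of 87 probes tested for 66 genes, 0 passed the limma test after Benjamini-Hochberg adjustment and 10 (11.5%) had an unadjusted p under 0.05, 5 higher and 5 lower, which is near the 12.7% of all probes. The median difference was 0.051 for the aspartic peptidases, -0.14 for the glycine receptor subunits and their anchor, -0.050 for the RASSF family and Hippo core, 0.018 for the histone chaperones, -0.074 for the lipocalins, 0.13 for the partners of Stambp and 0.12 for tRNA splicing, beside -0.078 for all probes. The gene with the largest difference was Ctse (0.43 ± 0.34) among the aspartic peptidases, Stk4 (-0.39 ± 0.17) in the RASSF and Hippo list and, for histone chaperones, lipocalins, the partners of Stambp and tRNA splicing, Hira (-0.63 ± 0.51), Rbp4 (-0.55 ± 0.37), Tsg101 (-0.94 ± 0.66) and Ddx1 (0.84 ± 0.34), each with its SE. None of their probes had a tract over 4 bases.

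Across the series, 34840 to 41050 of the 58717 gene spots of an array were well above background and none was saturated. Of the 12 follicular cell markers, 11 were tested, with mean levels from 4.07 to 4.33 in the KI-treated animals and 4.07 to 4.32 in the controls, led by Tg (thyroglobulin). Skeletal muscle markers ranged more widely, from -1.61 to 2.09 in the KI-treated animals and 0.33 to 3.56 in the controls (11 of 12 tested, brightest Tnni2), and the parathyroid list from 4.02 to 4.59 and from 3.16 to 4.34 (4 of 4, brightest Pth), with Calca, Ucp1, Cd4, Hba1, Comp and Mbp the brightest of the lists for C cells, adipocytes, lymphocytes, blood, cartilage and nerve. Within groups the mean of a marker list correlated with block A at r between -0.55 (nerve) and 0.31 (C cells), and with block B between -0.49 (blood) and 0.27 (skeletal muscle). The median KI-treated minus control difference was -0.85 over the muscle probes, as large as that of the members, 0.37 for lymphocytes and 0.31 for the parathyroid, and between -0.28 and 0.16 for the other lists, and 0 marker probes passed the adjustment. The part of other cell types in the blocks was not tested further.

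RefSeq promoters (assembly GRCr8, 250 bases before to 50 after the start) were held for 4 of the 9 members. The motifs searched on both strands were the TATA box (TATAAA), the CCAAT box (CCAAT), the GC box (GGGCGG), the E-box (CACGTG) and the cAMP response element (TGACGTCA), and no motif was found in all 4. The 110 bases before the start follow, with matches in capitals, to show what the promoters of both blocks hold.
Cym, block A: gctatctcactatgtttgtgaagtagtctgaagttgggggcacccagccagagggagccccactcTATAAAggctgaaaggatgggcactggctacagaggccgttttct
Glra2, block A: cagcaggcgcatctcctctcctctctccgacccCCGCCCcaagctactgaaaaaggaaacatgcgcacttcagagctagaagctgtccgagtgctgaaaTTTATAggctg
Lcn10, block B: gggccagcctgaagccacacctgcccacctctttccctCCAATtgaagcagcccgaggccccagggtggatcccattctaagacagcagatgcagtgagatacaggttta
Stambp, block B: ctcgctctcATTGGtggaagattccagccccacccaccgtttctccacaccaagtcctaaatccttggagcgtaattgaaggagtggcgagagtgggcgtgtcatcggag

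TATAAA matched in Cym and, on the opposite strand, in Glra2, and 14.2% of all 33469 promoters held it. CCAAT matched in Lcn10, where a further match lies upstream of the bases shown, and on the opposite strand in Stambp, and 37.5% of all promoters held it. GGGCGG matched on the opposite strand in Glra2, against 33.1% of all. CACGTG (6.42%) and TGACGTCA (1.83%) matched in none of the 4. The longest alternating C/A run in these 4 promoters was 5 bases.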

How the data were processed

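RNA of 13 rat thyroids was measured on single-colour Agilent arrays. The authors deposited scanner files in which Feature Extraction (version 10.7.3.1, per the file headers) gives the intensity of each spot after background subtraction, not normalized between arrays. Log2 values of these arrays were deposited as well, whose normalization is not given in the sources used here and which served as an alternative. Low intensities depend on the background subtraction.

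Groups and replicate numbers came from the sample titles. Control and outlier-flagged spots were left out, spots of a probe averaged and the log2 values centred on the array's 75th percentile. Probes flagged well above background on 6 or more arrays (25717) entered limma (version 3.58.1, R 4.3.3), with Benjamini-Hochberg adjustment at 0.05. The test was checked on simulated data. Correlations were computed in Python 3.11.15 (numpy 2.4.6) after subtracting group means, with the brightest probe standing for a gene. A tract is the longest uninterrupted run of alternating C and A in the probe. The members and gene lists were chosen with earlier results of these data known, and the tract classes after the correlations were seen. Named genes were the members, the 5 genes most and least like each block, the largest difference of each family list and the brightest gene of each marker list, and genes with tracts named outside this rule were chosen after their values were seen. A gene that the rule names and a probe sequence are not reported here. The number of arrays limits the precision, and litters are not named. Promoter sequences came from RefSeq (GRCr8), no protein sequences were used, and 5 members had no promoter entry used here. Alternatives were other scalings, filters and probe choices, Spearman's rho, array weights, each array left out, and replicate number, slide or session as a block.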

Additional observations from a re-analysis of the deposited data

Results flagged for a closer look

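Among 22 sets of values, which are the 9 brightest probes and both block means in each group, a pair stood out by an animal far from the rest of its group. In Rassf2, KI 6 had a level of 2.95, and its gap to the next KI-treated animal was 0.676 of the range of the group. In LOC102552016, KI 6 had a level of 2.30, with a gap of 0.637 of the range. Both are block A genes, and KI 6 was the highest KI-treated animal in all 5 of them. Chance alone flags about 1 in 20 of such sets. The sets are not independent, since the genes of a block vary together and make up its mean.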

How the results depend on the processing

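The number of probes past the adjusted threshold was 0 in every setting but array weights, with 50, and leaving out control 1 or control 2, with 1 each, so that leaving out an array gave 0 to 1. At an unadjusted p under 0.05 there were 3271 probes, of which 55.1% were lower in the KI-treated group. That share was 44% with quantile normalization, 41.9% with the deposited log2 values, 42.7% with normexp and quantile normalization, 74.6% with normexp and the 75th percentile, and 38.3% with the percentile taken over all gene spots, a setting added after seeing the data. The median of the 9 members' differences was -0.69, between -0.83 and -0.60 with each array left out. Subtracting the outside tract probes, also added later, moved it to -0.0056 and turned the sign in Glra2 (0.070), Lcn10 (0.066), Stambp (0.17) and Trpt1 (0.11). With the class of each member's own tract length, added later too, the median was the same, LOC102552016 turned as well (0.090) and Lcn10 did not (-0.59). Of 216 values of single members under other settings, 208 stayed below 0. The size of the Lcn10 difference, -0.73 in the main setting, depended on the background handling. It was -0.50 with normexp and the 75th percentile, -0.38 with normexp and quantile normalization and -0.49 with the deposited log2 values. With quantile normalization alone it was -0.71.

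The mean r inside block A was 0.94, between 0.90 and 0.95 with each array left out, 0.59 with the mean of all probes of a gene and 0.18 after regression on the outside tract probes. Inside block B it was 0.91, between 0.90 and 0.93 with each array left out, 0.87 with normexp and the 75th percentile, 0.86 with the mean of all probes, 0.94 with group means not subtracted and 0.40 after the regression. The link between the blocks was between 0.11 and 0.56 with each array left out and 0.90 with slide as a block. With the replicate number as a block, 0 probes passed, the median member difference was -0.67, and the mean r was 0.98 inside block A and 0.80 inside block B. Same-numbered arrays did not deviate together (correlations from -0.11 to 0.071), which gave no sign that the numbers pair the animals. Such correlations cannot settle whether they do, since a pairing need not show in them. The mean of all probes adds the further probes of Glra2 (tract of 19 bases) and of Rassf2, LOC102549817 and Trpt1 (tracts of 4 bases or fewer). The cause of these shifts was not tested.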
